A study of Mus musculus with 32 samples.

Results

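Whole bladders of 26-month-old female C57BL/6 mice that had received dasatinib plus quercetin (D+Q) were compared with bladders of mice of the same age and sex that had received only the vehicle. The members are the 6 bladders labelled as D+Q-treated and the 4 labelled as vehicle-treated, 10 of the 32 bladders of the series. Both groups were gavaged monthly, 3 days in a row, between the ages of 21 and 26 months, with 5 mg/kg/day dasatinib and 50 mg/kg/day quercetin in 1 arm and the lipid, polyethylene glycol and ethanol carrier alone in the other. Each library was made from 1 bladder, so urothelium, detrusor smooth muscle, stroma, nerve, blood and immune cells were read together. The series also holds water-gavaged old bladders (n = 5), untreated old bladders (n = 6) and middle-aged bladders (10 months, n = 5), which are used below only as a reference, and young bladders (n = 6).

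D+Q is a senolytic combination, a treatment meant to remove senescent cells. Such cells have left the cell cycle for good under the control of inhibitors such as p16 (Cdkn2a) and p21 (Cdkn1a), resist apoptosis, and secrete cytokines, chemokines and proteases known as the senescence-associated secretory phenotype (SASP). Dasatinib inhibits ABL and SRC-family kinases and several receptor tyrosine kinases, and quercetin is a plant flavonoid that acts on many enzymes, PI3K among them. The bladder lumen is lined by large, often polyploid umbrella cells, which carry a plaque of uroplakins, above intermediate and basal urothelial cells.

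Defining genes of the labelled tissue were present in all 10 bladders. The 14 umbrella cell genes, uroplakins among them, summed to 7094 to 8256 CPM (counts scaled to library size and composition) in the vehicle bladders and to 6505 to 8621 CPM after D+Q. The 20 detrusor smooth muscle genes summed to 38427 to 45998 CPM and to 36074 to 44392 CPM. Depth was 21252772 to 41630715 counts in the vehicle libraries and 29098617 to 46477640 counts in the D+Q libraries, and vehicle replicate 4 was the shallowest of the 10. Vehicle replicate 3 stood apart in genes of lymphocytes and D+Q replicate 6 in genes of red blood cells, and results that rest on them are given with and without them. In whole tissue, fewer cells of a type and less RNA per cell cannot be told apart.

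No gene passed the adjusted threshold in D+Q-treated against vehicle-treated bladders. Of 17267 genes tested with edgeR's quasi-likelihood test, 0 had a Benjamini-Hochberg adjusted p under 0.05, which is 0% of those tested, and the smallest adjusted p was 0.994. At an unadjusted p under 0.05 there were 722 genes, or 4.18% of those tested, of which 468 (2.71%) were higher and 254 (1.47%) lower after D+Q. The values of both groups did not overlap for 190 genes, 138 of them higher in every D+Q bladder (0.799%) and 52 lower (0.301%). Of the 210 ways to assign these bladders to the groups, 1 in each direction separates them fully. Some separation therefore arises without any difference between treatments. The typical gene differed little, with a median log2 fold change of -0.00267, quartiles of -0.0734 and 0.0706, and 48.8% of genes above 0. The median standard error was 0.098 and the median half-width of the 95% interval 0.215 on the log2 scale. That interval is for a single gene without adjustment, and changes well under that size could not be resolved with these 10 bladders. Larger differences also failed the adjusted threshold. Fras1, with a log2 fold change of -0.83 and the smallest p of all genes, had an adjusted p of 0.994 in edgeR's quasi-likelihood test. DESeq2 on the same counts called 10 genes, and edgeR's likelihood ratio test and exact test called 3 each. These 10 genes, which include the 3, are given with their values below. Without vehicle replicate 1 the number with an unadjusted p under 0.05 was 1553.

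The senescence genes came first, because the treatment is aimed at the cells that express them. Cdkn2a, which encodes p16 and p19Arf, was at 1.21, 1.48, 2.13 and 1.44 CPM in vehicle replicates 1 to 4 and at 1.1 to 2.14 CPM with a median of 1.27 after D+Q. The groups overlapped over nearly their whole range, and the single highest D+Q value, in replicate 6, matched the highest vehicle value. The log2 fold change was -0.16 with a standard error (SE) of 0.23 and a 95% interval of -0.66 to 0.34, and the two-sided exact permutation p was 0.457. Without vehicle replicate 3 the log2 fold change was 0.04. Cdkn1a, which encodes p21, was at 76.2, 74.6, 63.1 and 74.1 CPM in vehicle bladders and at 65.7 to 84.9 CPM after D+Q, again with overlap. Its log2 fold change was 0.08, with an interval of -0.10 to 0.26 and an exact permutation p of 0.424.

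The qPCR panel of senescence and SASP genes was then followed in these libraries. Of its 14 genes 10 were abundant enough to be tested. Of these 5 had a fold change above and 5 below 0, with a median log2 fold change of -0.03 against -0.00 over all genes, and 0 passed the adjusted threshold. Tgfb1, a growth factor that drives matrix deposition, lay at 42.8 to 55.8 CPM in vehicle bladders and at 46 to 55 CPM after D+Q, a log2 fold change of 0.01 with an interval of -0.15 to 0.17. Ptgs2, the inducible cyclooxygenase, spread from 7.96 to 33.2 CPM after D+Q and from 11.4 to 19 CPM with vehicle, so the D+Q range enclosed the vehicle range (log2 fold change 0.41, interval -0.32 to 1.14). Mmp3, a matrix metalloproteinase, had a log2 fold change of -0.12 (SE 0.20), and the chemokines Ccl2 and Ccl3 of 0.09 (SE 0.30) and -0.06 (SE 0.33). The inflammatory cytokines Il1b and Tnf had values of 0.16 (SE 0.35) and -0.37 (SE 0.31).

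Il10, an anti-inflammatory cytokine, was the 1 panel gene with an unadjusted p under 0.05. It was at 0.386, 0.43, 2.08 and 1.63 CPM in vehicle replicates 1 to 4 and at 0.191 to 0.733 CPM after D+Q. Vehicle replicates 3 and 4 were above every D+Q bladder and vehicle replicates 1 and 2 were inside the D+Q range. The log2 fold change was -1.10 (SE 0.50, unadjusted p = 0.0477, exact permutation p = 0.21), and -0.55 without vehicle replicate 3.

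The other 4 panel genes, Csf2, Cxcl1, Il6 and Mmp13, were too low to be tested across the genome. Their highest values were 0.245, 0.573, 0.287 and 0.171 CPM, where a count of 3 corresponds to 0.0645 to 0.141 CPM in these libraries. Cxcl1, a neutrophil-attracting chemokine, was at 0.217, 0.134, 0.123 and 0 CPM with vehicle and at 0.14 to 0.573 CPM after D+Q, with an exact permutation p of 0.0238. Exact tests were run on 134 genes in all, 18 of them from this panel or named by the study for D+Q. Cxcl1 was the 1 of the 18 under 0.05, and among 18 tests 1 such value can arise without any difference. Several Cxcl1 values were at or near the level of 3 counts.

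**Figure D1:**
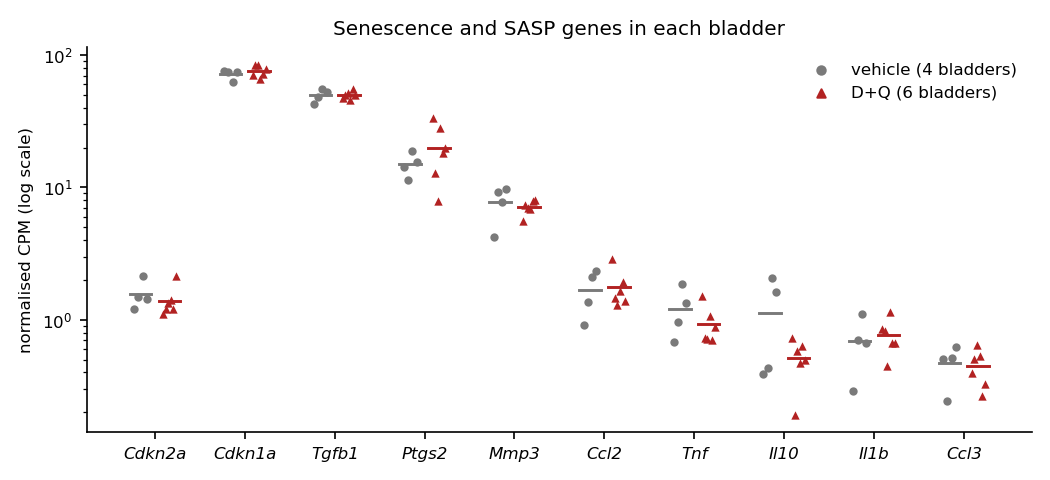
Normalised CPM (vertical axis, log scale) of the 10 tested senescence and SASP genes in each vehicle bladder (grey circles, n = 4) and each D+Q bladder (red triangles, n = 6), with bars at the group means. Values of both groups overlapped for all 10 genes, and Cdkn2a lay between 1.1 and 2.14 CPM in the D+Q bladders.

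A wider list of 34 SASP and senescence genes had 16 above and 18 below 0, with a median of -0.01. The 2 members with the smallest p were both higher after D+Q. Cdkn1b, the cell cycle inhibitor p27, was at 71.5, 74.3, 70.2 and 63.2 CPM with vehicle and at 74.9 to 78.8 CPM after D+Q, without overlap (log2 fold change 0.13, SE 0.05, unadjusted p = 0.0174). Plaur, the urokinase receptor, was at 10.9, 7.95, 8.66 and 8.47 CPM with vehicle and at 9.71 to 16.7 CPM after D+Q (0.43, SE 0.16, unadjusted p = 0.0226). Among 20 targets of p53, 11 were above and 9 below 0 (median 0.01). None of the genes of either list passed the adjusted threshold.

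The lists closest to how the drugs are known to act held few differences. Among 17 tested BCL-2 family genes, which set the threshold for apoptosis, 12 were below 0 with a median of -0.03. The largest difference in it was Bcl2a1a, an anti-apoptotic member with near-identical copies between which reads could be split, at 0.289, 0.591, 1.55 and 1.34 CPM with vehicle and at 0.299 to 0.573 CPM after D+Q (log2 fold change -0.91, SE 0.41, unadjusted p = 0.0468). Its value was -0.50 without vehicle replicate 3. Of 28 tested kinases that dasatinib is known to inhibit, 19 were below 0 (median -0.06). Ddr1, a collagen receptor kinase, was the 1 with an unadjusted p under 0.05, at 84, 82.2, 83.7 and 86.9 CPM with vehicle and 69.5 to 86.1 CPM after D+Q (-0.14, SE 0.06, unadjusted p = 0.0308). Of the 6 D+Q bladders, 5 lay below all 4 vehicle bladders.

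All 10 tested targets of the aryl hydrocarbon receptor, a sensor of plant compounds and pollutants, had fold changes above 0, with a median of 0.20 and a range of 0.11 to 0.45. Only Gsta2, a glutathione transferase, had an unadjusted p under 0.05, at 13, 14, 16.1 and 14.6 CPM with vehicle and 14.7 to 20.8 CPM after D+Q (log2 fold change 0.27, SE 0.11, unadjusted p = 0.0399). Gsta1 and Gsta2 are close paralogs, and Ugt1a6a and Ugt1a6b share exons, so reads could be split between them. Of 28 targets of NRF2, which responds to oxidants, 18 were above 0 (median 0.05). Osgin1, an oxidative stress response gene, was at 95.6, 74.3, 74.5 and 84 CPM with vehicle and 86.9 to 97.7 CPM after D+Q (0.18, SE 0.07, unadjusted p = 0.0305), where vehicle replicate 1 lay within the D+Q range. The median of the aryl hydrocarbon receptor list was 0.10 without vehicle replicate 3, and 0.03 with 6 of 10 above 0 when vehicle and water bladders were pooled as the control.

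Next came the genes whose values separated the groups. Among genes with a mean of at least 1 CPM, 10 that were higher and 9 that were lower in every D+Q bladder, taken by smallest p, are described here. As they were chosen for that separation, it is a description. Levels in water-gavaged and untreated bladders were scaled over all 32 bladders. The smallest p of all 17267 genes was that of Fras1, a basement membrane protein that holds epithelia to the tissue beneath (chr5:96373955-96784728, plus strand, mm10). It was at 24.4, 26.8, 36.5 and 31.7 CPM in vehicle replicates 1 to 4 and at 12.1 to 20.4 CPM with a median of 17.1 after D+Q. Every D+Q bladder was below every vehicle bladder, by 1.78-fold on average (log2 fold change -0.83, SE 0.14, unadjusted p = 9.14e-05, adjusted p = 0.994). DESeq2 gave an adjusted p of 0.000127, and the log2 fold change lay between -0.92 and -0.67 over the alternative fits and with each bladder left out. The water-gavaged bladders, 22.6 to 37.8 CPM, were also above the D+Q bladders, and the untreated old bladders spread from 18.8 to 39.5 CPM. Non-coding genes on the opposite strand overlap Fras1 and the strand setting of the counting is not given, so their reads cannot be told apart from its own.

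Trpm5, a cation channel of taste cells and of chemosensory tuft cells (chr7:143069153-143094642, minus strand), was at 1.81, 0.618, 3.53 and 1.77 CPM with vehicle and at 0.196 to 0.581 CPM after D+Q. All D+Q values were lower, although the lowest vehicle value was close to the highest D+Q value (log2 fold change -2.07, SE 0.42, unadjusted p = 0.000382, DESeq2 adjusted p = 0.0114). Among water-gavaged bladders 2 were at 11.3 and 7.04 CPM and the other 3 at 0.422 to 0.582 CPM, within or near the D+Q range. Of 6 tested tuft cell genes, a list drawn up after Trpm5 was seen, 5 were below 0 (median -0.20).

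The other genes that were lower in every D+Q bladder had larger p-values. Slc1a6, a glutamate transporter, was at 1.95, 1.77, 1.64 and 3.11 CPM with vehicle and at 0.917 to 1.47 CPM after D+Q (log2 fold change -0.87, SE 0.21). Fbln7, a fibulin of the extracellular matrix, was at 5.83 to 9.81 CPM against 3.72 to 5.41 CPM (-0.59, SE 0.16). Bmp6, a bone morphogenetic protein, Coro2b, an actin-binding coronin, Lhfpl2, Polr1a, the large subunit of RNA polymerase I, and Btbd19 had log2 fold changes between -0.28 and -0.21. Against water-gavaged bladders D+Q gave values of 0.05 for Fbln7, -0.02 for Bmp6, -0.00 for Coro2b, -0.02 for Lhfpl2 and -0.07 for Btbd19. Vehicle against water bladders gave log2 fold changes for these genes, in the same order, of 0.64, 0.21, 0.27, 0.23 and 0.21.

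The 10 genes that were higher in every D+Q bladder had log2 fold changes from 0.20 for Vmp1 to 1.36 for mt-Atp8. Gt(ROSA)26Sor, the non-coding transcript of the Rosa26 locus, was at 6.39, 7.76, 4.81 and 3.54 CPM with vehicle and at 9.2 to 11.6 CPM after D+Q (log2 fold change 0.80, SE 0.18, unadjusted p = 0.00108, DESeq2 adjusted p = 0.0215). Vmp1, which acts in autophagosome formation, was at 99.8 to 107 CPM with vehicle and at 115 to 125 CPM after D+Q (0.20, SE 0.04), with a DESeq2 adjusted p of 0.0126. Hmgcs1, which makes the precursor of cholesterol synthesis, was at 66.3 to 71.2 CPM against 78.3 to 92.7 CPM (0.28, SE 0.06, DESeq2 adjusted p = 0.037). Against water, however, its value was -0.04 after D+Q and -0.32 with vehicle, with water bladders at 67.9 to 103 CPM. Of 22 genes of cholesterol synthesis and uptake, a list drawn up after Hmgcs1 was seen, 17 were above 0 (median 0.08).

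Chmp1b, a subunit of the membrane-cutting ESCRT machinery, Tmx1, a disulphide isomerase of the endoplasmic reticulum, Kif5a, a neuronal kinesin, and Rap1a, a small GTPase, had log2 fold changes of 0.29, 0.22, 0.28 and 0.24 with SEs of 0.05 to 0.06. Tmx1 lay at 37.2 to 40.6 CPM with vehicle and at 43.7 to 48.9 CPM after D+Q, while water bladders were at 36 to 40.4 CPM and untreated old bladders at 41.4 to 49.3 CPM. Kif5a lay at 16.3 to 18.5 CPM against 19.1 to 22.2 CPM. Reads of Trpm5, Bmp6, Gt(ROSA)26Sor and Hmgcs1 cannot be told apart from those of an overlapping gene on the opposite strand unless strand was used, and Chmp1b overlaps Gnal on the same strand, so these values are uncertain.

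**Figure D2:**
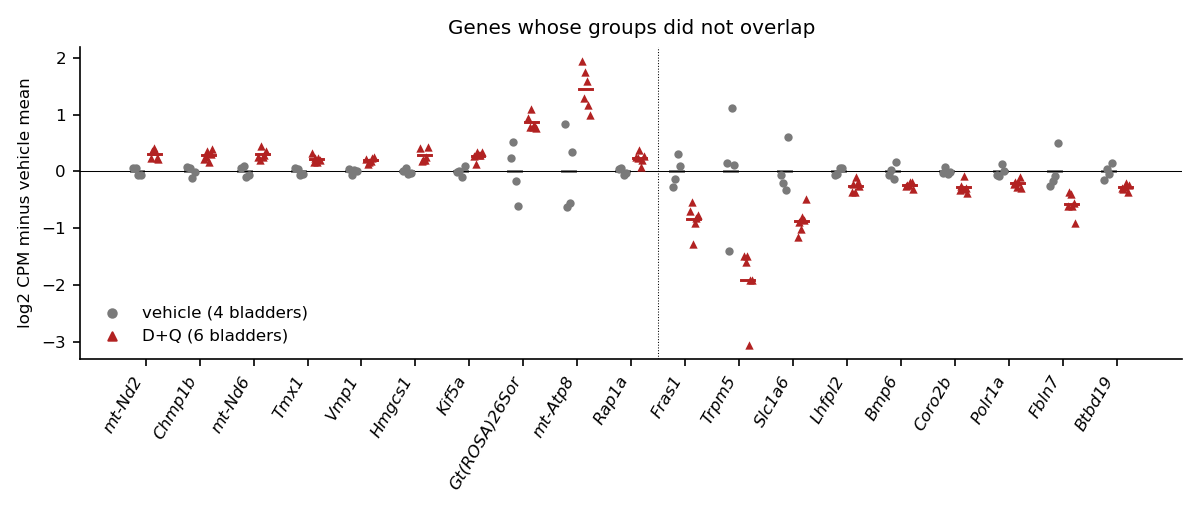
Log2 CPM of each bladder minus the vehicle mean for 10 genes that were higher (left of the dotted line) and 9 that were lower in every D+Q bladder; grey circles are the 4 vehicle and red triangles the 6 D+Q bladders, and bars are group means. Most of the differences are under 0.5 on the log2 scale, and those of Fras1, Trpm5, Slc1a6, Fbln7, Gt(ROSA)26Sor and mt-Atp8 are larger.

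Messenger RNAs encoded by the mitochondrial genome, which specify subunits of the respiratory chain, came next. All 13 had fold changes above 0, with a median of 0.30 and a range of 0.05 to 1.36. An unadjusted p under 0.05 was reached by 9 of the 13, where 2.71% of all genes did so in that direction. Values of 3 were higher after D+Q without overlap between groups, where 0.799% of all genes were. Since these RNAs come from shared precursors, the 13 are not independent. The median stayed between 0.26 and 0.33 under every alternative fit and with each bladder left out.

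mt-Nd2, a complex I subunit (chrM:3914-4951), was at 1951, 1960, 1800 and 1804 CPM in vehicle replicates 1 to 4 and at 2194 to 2489 CPM with a median of 2311 after D+Q. Every D+Q bladder was above every vehicle bladder (log2 fold change 0.30, SE 0.06, unadjusted p = 0.000177, DESeq2 adjusted p = 0.000134). mt-Nd3, also of complex I, was at 6.61, 9.88, 5.27 and 5.46 CPM against 9.87 to 18.1 CPM, with vehicle replicate 2 level with the lowest D+Q bladder (1.17, SE 0.21, unadjusted p = 0.000173, DESeq2 adjusted p = 0.000127). mt-Nd6, encoded on the other strand, was at 750 to 864 CPM against 926 to 1096 CPM (0.30, SE 0.06, DESeq2 adjusted p = 0.0114), and it overlaps mt-Nd5 on the opposite strand, whose reads cannot be told apart unless strand was used. mt-Atp8, a subunit of ATP synthase that shares bases with mt-Atp6, was at 0.537 to 1.47 CPM against 1.64 to 3.18 CPM (1.36, SE 0.31, DESeq2 adjusted p = 0.037). mt-Co1, the catalytic core of complex IV, differed by 0.16 (SE 0.09) and mt-Cytb, of complex III, by 0.05 (SE 0.07).

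The summed level of the 13 was 27705, 27373, 24075 and 21532 CPM in vehicle replicates 1 to 4 and 27235 to 29230 CPM after D+Q, so vehicle replicates 3 and 4 were low and replicates 1 and 2 lay in the lower part of the D+Q range. The levels in the other old bladders stand beside these, scaled together over all 32 bladders. mt-Nd2 was at 1716 to 2034 CPM in the 5 water-gavaged bladders, at 1786 to 1957 CPM in the vehicle bladders, at 2198 to 2505 CPM after D+Q and at 2219 to 2601 CPM in the 6 bladders of untreated old mice. For mt-Nd2 the D+Q bladders thus overlapped the untreated bladders and lay above both gavage control groups. The sum of the 13 was at 20958 to 27906 CPM with water and at 21409 to 27682 CPM with vehicle. It was at 26942 to 29420 CPM after D+Q and at 27143 to 30280 CPM untreated, so the ranges of this sum overlapped. Gt(ROSA)26Sor was at 4.21 to 6.62 CPM with water, 3.52 to 7.75 with vehicle, 9.2 to 11.7 after D+Q and 6.77 to 10.7 CPM untreated.

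Red blood cell genes had the largest median of the lists examined. All 6, the haemoglobin chains Hba-a1, Hba-a2, Hbb-bs and Hbb-bt with Alas2, the erythroid enzyme of haem synthesis, and Slc4a1, the red cell anion exchanger, had an unadjusted p under 0.05 and a fold change above 0 (median 2.95, range 2.62 to 3.92), where 2.71% of all genes did so. Since all 6 mark red blood cells, they are not independent of each other. The median was 1.71 without D+Q replicate 6, with all 6 still above 0, and 1.66 with the title replicate number as a block. Hbb-bs was at 60.9, 64.7, 97 and 96.2 CPM with vehicle and at 245, 193, 506, 135, 200 and 2052 CPM in D+Q replicates 1 to 6. Every D+Q bladder was above every vehicle bladder, and replicate 6 was far above the other five. The log2 fold change was 2.80 (SE 0.79, unadjusted p = 0.00435, exact permutation p = 0.019), and 1.68 without D+Q replicate 6. Hba-a1 was at 17.6 to 32.4 CPM with vehicle and 44.8 to 530 CPM after D+Q (2.68, SE 0.72).

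Summed over the 6 genes and scaled over all 32 bladders, the levels were 100.6 to 164.1 CPM with vehicle, 125.2 to 195.7 CPM with water, 225.1 to 3511 CPM after D+Q and 71.41 to 582.3 CPM in old mice left untreated. The untreated range thus covered the vehicle, the water and 4 of the D+Q bladders. Of the 9 genes of neutrophils, which are also carried in blood, 5 could be tested, with 4 above 0 and 1 below (median 0.22, and -0.03 without vehicle replicate 1). The 2 with an unadjusted p under 0.05 were S100a8 and S100a9, where 2.71% of all genes were higher at that level. S100a9, a subunit of calprotectin, was at 0.0964, 0.107, 0.221 and 0.0479 CPM with vehicle and at 0.244 to 1.45 CPM after D+Q (log2 fold change 2.43, SE 0.55, unadjusted p = 0.001), with D+Q replicate 6 highest, and its partner S100a8 had a value of 1.87 (SE 0.66). Their vehicle values were near the level of 3 counts. Ly6g, Camp, Ngp and Mmp8 were below the filter. How much of the other differences moved with blood content was not tested.

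**Figure D3:**
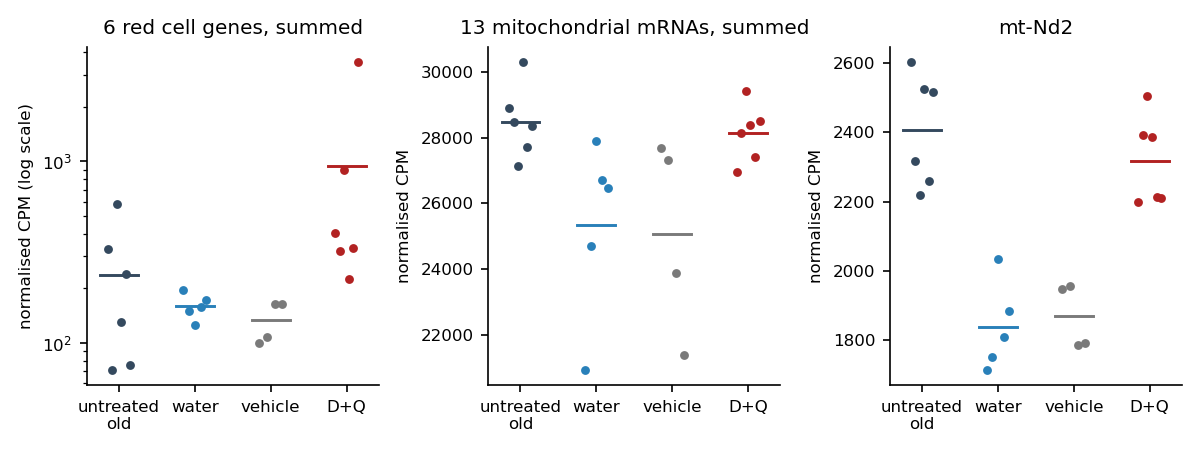
Normalised CPM per bladder in the 4 old groups for 6 red cell genes summed (left, log scale), 13 mitochondrial mRNAs summed (middle) and mt-Nd2 (right), with bars at group means; the 2 linear axes do not start at 0. D+Q replicate 6 reaches 3511 CPM of red cell genes, and all D+Q bladders lie above all vehicle and water bladders for mt-Nd2.

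The 22 immediate early genes, which respond within minutes to signals and to handling of tissue, were also in 1 direction. All 21 tested had fold changes above 0 (median 0.27, range 0.09 to 1.13), where 48.8% of all genes did, and 3 had an unadjusted p under 0.05, where 2.71% of all genes were higher at that level. Without D+Q replicate 1 the median was 0.08, with 18 above 0 and 3 below. The summed level, scaled over all 32 bladders, was 1078 to 1372 CPM with vehicle, 1007 to 1833 CPM with water and 1026 to 2121 CPM after D+Q, so these ranges overlapped. Fos, a subunit of AP-1, was at 15.4, 9.02, 17.6 and 15.2 CPM with vehicle and at 54.4, 13.2, 13.3, 25.9, 16.1 and 50 CPM in D+Q replicates 1 to 6. D+Q replicates 1, 4 and 6 were above all vehicle bladders and the other three were within the vehicle range (log2 fold change 1.01, SE 0.44, unadjusted p = 0.0418, exact permutation p = 0.186). Nr4a2, a nuclear receptor, was at 5.45 to 6.25 CPM against 6.25 to 11.7 CPM (0.48, SE 0.16, unadjusted p = 0.0138). Against water-gavaged bladders the Nr4a2 value was -0.35. The chaperone Hspa1a was at 17.8 to 19.4 CPM with vehicle and 18.2 to 26.1 CPM after D+Q (0.23, SE 0.10), and the 15 heat shock genes had a median of 0.01.

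Most genes of B cells and of antigen presentation had fold changes below 0 after D+Q, and this direction rested on 1 vehicle bladder. CXCL13 draws B cells that carry its receptor CXCR5 into lymphoid tissue. Of 19 B cell genes 15 were below 0, with a median of -0.83, and of 20 genes of B cell receptor signalling and 11 of MHC class II, all were below 0 (medians -0.36 and -0.27). None of these genes passed the adjusted threshold and 1, Spib, reached an unadjusted p under 0.05. Without vehicle replicate 1, the bladder lowest in B cell genes, the B cell median was -1.16. The summed B cell genes did not follow the median, at 213, 3586, 6936 and 4228 CPM with vehicle (mean 3741) and at 1068 to 5469 CPM after D+Q (mean 3915). Without vehicle replicate 3 the medians were 0.17, 0.03 and 0.23, and 11 of the 11 MHC class II genes were then above 0. The 20 T cell genes went from a median of -0.14 to 0.35, the 25 cell cycle genes from -0.19 to 0.22 and the 38 tested interferon-stimulated genes from -0.08 to 0.05.

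The 4 genes that the study names for D+Q among its RNA sequencing results were all below 0, with a median of -0.92. They were picked from these samples, so their direction is no independent evidence, and the study's methods set D+Q against untreated old bladders with the gavage controls as a filter, not against vehicle. Cxcr5 was at 3.64, 3.73, 28.3 and 7.85 CPM in vehicle replicates 1 to 4 and at 8.22, 4.55, 2.42, 6.18, 4.16 and 1.1 CPM in D+Q replicates 1 to 6. Vehicle replicate 3 was several times above every other bladder, and the other 3 vehicle bladders lay within the D+Q range. The log2 fold change was -1.30 (SE 0.63, unadjusted p = 0.0621, exact permutation p = 0.257), and -0.18 without vehicle replicate 3. Summed over the 4 genes and scaled over all 32 bladders, levels were 71.91 to 322 CPM with vehicle and 71.9 to 133.3 CPM after D+Q. They were 81.5 to 331.7 CPM with water and 104.6 to 188.9 CPM untreated, so the highest water bladder reached the highest vehicle level. The B cell sum, scaled alike, was 6883 CPM in vehicle replicate 3 and reached 11305 CPM in an untreated bladder.

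Cxcl13 was at 2.92, 7.14, 43.7 and 34.9 CPM with vehicle and at 7.07 to 17.9 CPM after D+Q, so vehicle bladders lay on both sides of the D+Q range (-1.13, SE 0.59). Syk, the kinase that relays B cell receptor signals, was at 36.2, 52.4, 180 and 55.5 CPM against 34 to 70.3 CPM (-0.70, SE 0.39), and Pik3cd, the leukocyte PI3K catalytic subunit, at 29.2, 37, 72.5 and 44.4 CPM against 28.1 to 46.3 CPM (-0.36, SE 0.22). Without vehicle replicate 3 the values were -0.54 for Cxcl13, 0.06 for Syk and -0.05 for Pik3cd. Spib, a transcription factor of B cells, was at 8.44, 12.7, 51.3 and 15.9 CPM against 4.29 to 14.5 CPM (-1.17, SE 0.49, unadjusted edgeR p = 0.0357, exact permutation p = 0.167, and -0.32 without vehicle replicate 3).

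Antibody genes varied widely within both groups. The summed level of all immunoglobulin variable segments was 54.29, 2159, 3289 and 3031 CPM in vehicle replicates 1 to 4 and 567.5 to 2814 CPM after D+Q, with vehicle replicate 1 lowest. Igkv9-124, chosen after its values were seen, was at 0.0482 to 0.785 CPM with vehicle and at 0.307 to 94.9 CPM after D+Q (log2 fold change 5.63, DESeq2 adjusted p = 0.0114). Ighv1-69 had 3 vehicle bladders at 20.2 to 41.6 CPM and the fourth at 0.0241, with 0.13 to 2.76 CPM after D+Q (-4.45, exact permutation p = 0.0952). Of 180 tested genes with an absolute log2 fold change above 1, 82 were such segments.

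**Figure D4:**
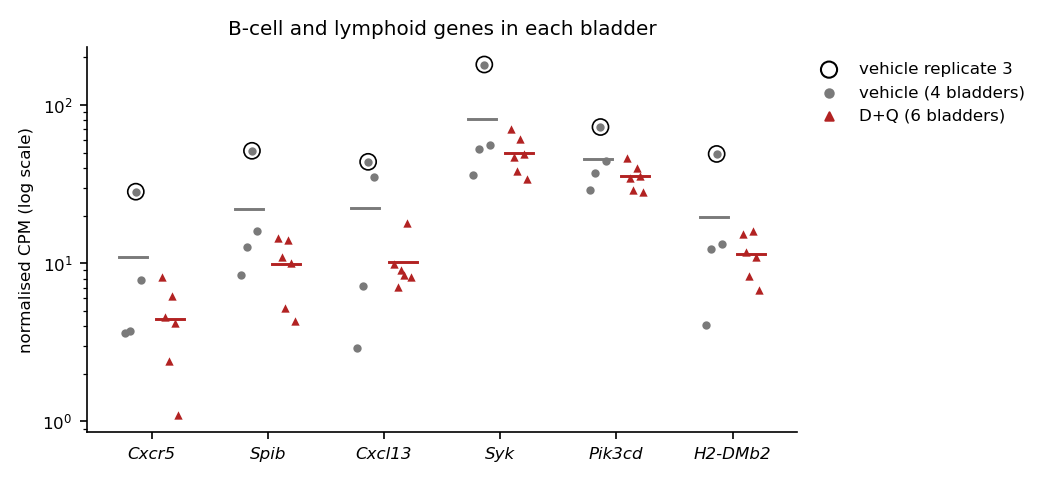
Normalised CPM (log scale) of 6 B cell and lymphoid genes in each vehicle bladder (grey circles) and D+Q bladder (red triangles), with bars at group means and vehicle replicate 3 ringed. That bladder is the highest of all 10 for each gene, at 28.3 CPM of Cxcr5 and 180 CPM of Syk.

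Genes of macrophages and of complement were also mostly below 0, with less weight on that bladder. Of 20 macrophage and monocyte genes 17 were below 0 (median -0.15, and -0.07 without vehicle replicate 3). Cd68, a lysosomal protein of macrophages, was at 28.7, 32.7, 45.7 and 46.9 CPM with vehicle and at 30.2 to 33.6 CPM after D+Q (-0.28, SE 0.12, unadjusted p = 0.0448), with vehicle replicates 3 and 4 high and replicates 1 and 2 at the D+Q level. Of 19 complement genes 17 were below 0 (median -0.12). C3, the central complement protein, was at 843, 1458, 1535 and 1799 CPM with vehicle and at 911 to 1203 CPM after D+Q (-0.39, SE 0.17, unadjusted p = 0.0418), and against water its value was -0.04. Of 6 tested mast cell genes 4 were above 0 and 2 below (median 0.69, range -0.34 to 0.95, and -0.22 for the genes with at least 10 counts in every bladder). The smallest p belonged to proteases, Cpa3 at 0.295 to 0.579 CPM against 0.475 to 1.19 CPM (0.91, SE 0.30) and Cma1 at 0.319 to 0.53 CPM against 0.509 to 1.41 CPM (0.91, SE 0.34, and 0.09 with vehicle and water bladders pooled as the control for Cma1). The summed mast cell genes were at 51.64 to 65.67 CPM with vehicle and 36.79 to 61.81 CPM after D+Q, overlapping, and 4 of the 10 were too low to test.

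Most structural lists of the bladder wall differed by small amounts. The 14 umbrella cell genes had a median log2 fold change of 0.00, with 8 above 0 and a range of -0.05 to 0.12, and the 14 tested basal and intermediate urothelial genes a median of 0.05. Of 20 detrusor smooth muscle genes 19 were below 0 (median -0.09), as were 13 of 16 fibroblast genes (median -0.08) and 20 of 24 collagen and matrix genes (median -0.12), where 48.8% of all genes were above 0. Col5a1, a collagen V chain, was at 383, 421, 392 and 355 CPM with vehicle and at 331 to 370 CPM after D+Q, with 1 D+Q bladder inside the vehicle range (-0.18, SE 0.05, unadjusted p = 0.00687). Loxl2, which cross-links collagen, was at 66.2 to 90.8 CPM against 56.1 to 79.7 CPM (-0.24, SE 0.10). S100b, a Schwann cell protein, was at 3.19 to 3.87 CPM against 4.17 to 5.29 CPM, without overlap (0.38, SE 0.11, unadjusted p = 0.00487). Of the 10 Schwann cell and nerve genes, however, 7 were above 0 and 3 below (median 0.03, range -0.52 to 0.38). Their sums, 255 to 288.8 CPM with vehicle and 252.5 to 298.5 CPM after D+Q, overlapped. Endothelial, pericyte, adipocyte and mesothelial lists had medians between -0.08 and 0.05, and the adipocyte median ran from -0.34 to 0.31 with 1 bladder left out. The 11 tested skeletal muscle genes had a median of -0.31 with 7 below 0, and -0.05 without vehicle replicate 1 or without vehicle replicate 3, while their sums, 383.7 to 597.7 CPM with vehicle and 474 to 625.6 CPM after D+Q, overlapped.

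**Figure D5:**
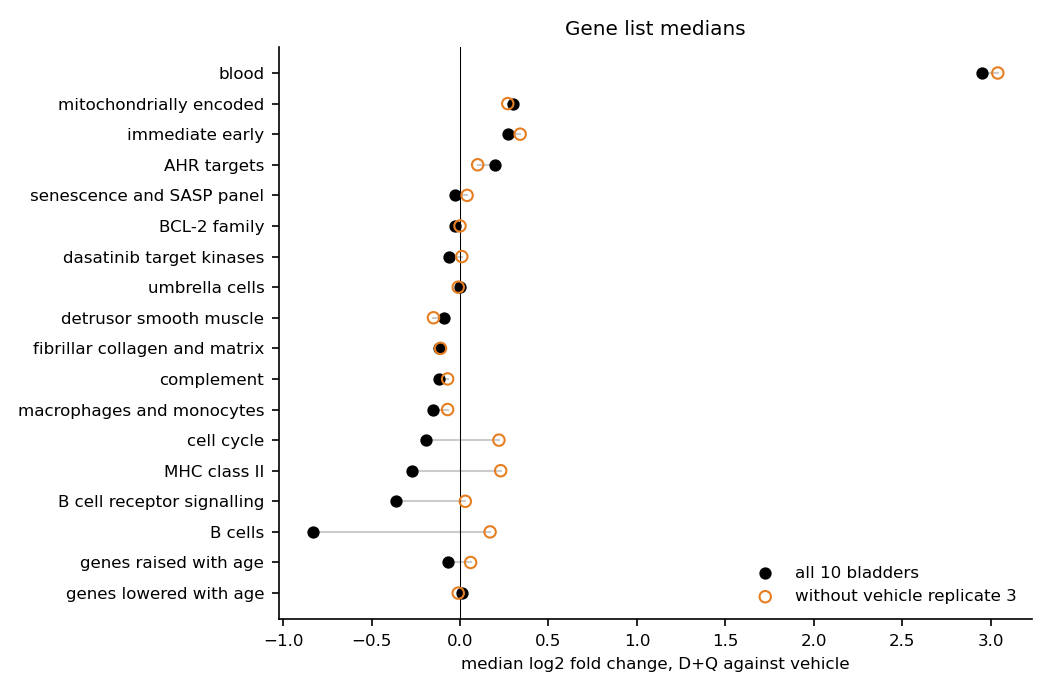
Median log2 fold change of 18 gene lists in D+Q against vehicle bladders, with all 10 bladders (black) and without vehicle replicate 3 (open orange); positive values are higher after D+Q. The B cell median moves from -0.83 to 0.17 and that of genes raised with age from -0.07 to 0.06, while the blood, mitochondrial and umbrella cell medians stay within 0.1.

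Whether D+Q moved the genes that change with age was examined with genes defined in other bladders. Untreated old against middle-aged bladders, which share no animal with the D+Q comparison, gave 2231 genes higher (13% of 17156) and 1879 lower (11%) at adjusted p under 0.05. Of the 2224 age-raised genes tested here, 1531 were below 0 after D+Q (median -0.07), with 56 lower and 38 higher at an unadjusted p under 0.05, where 1.47% and 2.71% of all genes were. Without vehicle replicate 3 the count turned, with 1482 above 0 and a median of 0.06. Of the 1875 age-lowered genes 995 were above 0 (median 0.01), and 810 without that bladder. Without vehicle replicate 1 the age-raised median was -0.15, and voom with sample quality weights gave 0. Of 1169 tested genes raised at least 1.5-fold with age, 864 were below 0 (median -0.16). At an unadjusted p under 0.05, 31 of them were lower and 9 higher, beside the same shares of all genes. Of 110 lowered at least 1.5-fold, 64 were above 0 (median 0.03). Values of these 1.5-fold sets without vehicle replicate 3 are not given here.

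Single age-related genes were named by their p in the D+Q comparison. Among age-lowered genes Hpgd, which degrades prostaglandins, was at 74.3 to 87 CPM against 83 to 105 CPM (log2 fold change 0.27, SE 0.07, against -0.28 with age), and Kif5a and S100b, given above, had age values of -0.44 and -0.29. Tspan18, a tetraspanin, was lower both with age (-0.21) and after D+Q (-0.20, SE 0.06). Among age-raised genes Ackr2, a scavenging chemokine receptor, was at 10.6, 9.48, 12.6 and 8.81 CPM with vehicle and at 5.6 to 9.04 CPM after D+Q, with 1 D+Q bladder inside the vehicle range (-0.54, SE 0.15, against 0.96 with age). Cyp11a1, the first enzyme of steroid synthesis, was at 0.672 to 9.44 CPM against 0.411 to 1.71 CPM (-2.19, and -1.04 without vehicle replicate 3), and the non-coding 5730507C01Rik was higher both with age (0.38) and after D+Q (0.54). None passed the adjusted threshold after D+Q.

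The gavage controls differed little from each other in number of genes. Vehicle against water gave 0 of 17294 genes at adjusted p under 0.05 and 322 (1.86%) at an unadjusted p under 0.05, and D+Q against water gave 0 of 17161 with a smallest adjusted p of 0.0904, shared by Gt(ROSA)26Sor and Lypla1, and 1342 (7.82%) unadjusted. These comparisons share the D+Q or the vehicle bladders with the comparison above. With vehicle and water bladders taken as 1 control group of 9, edgeR called 5 genes, of which mt-Nd2, mt-Nd3, mt-Atp8 and Tmx1 were higher and Fras1 lower after D+Q, with adjusted p of 0.039 to 0.0435.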

How the data were processed

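Bladders were analysed as total RNA libraries made with a stranded kit. Reads were aligned by the authors with STAR 2.7.3 to mm10 and summed per gene with Subread featureCounts into the deposited raw counts, with no pooling; the strand setting of the counting is not given in the sources used here. The authors also deposited log2 values, which the counts recompute as log2 of length-scaled counts plus 1, and the exon length of each gene. Of 32285 genes 32158 had a symbol, and 0 per-sample columns were left unused. The labels give no batch, and 0 pairs of libraries from the same group were identical.

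D+Q and vehicle bladders were compared on the counts with edgeR 4.0.16 (R 4.3.3), using TMM scaling, filterByExpr and the quasi-likelihood test, with a Benjamini-Hochberg adjusted p under 0.05. The study names edgeR but not its test or filter. CPM values use the TMM-scaled library sizes. Single genes had two-sided exact permutation tests of log2(CPM + 0.1) over 210 arrangements, with a smallest possible p of 0.00476 (scipy 1.17.1, Python 3.11.15). Alternatives used DESeq2 1.42.0, limma 3.58.1 and the pooled gavage controls. The count test was also run on simulated counts with 200 known changes, where 6.37% of the genes it called were unchanged ones. That simulation gave all genes the same relative spread and held no outlying bladder, so it does not cover the spread seen here. The labels give the bladders as separate samples, and p-values measure the spread between them. The level of 3 counts covers counting error only.

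The members, the 44 gene lists and the named genes were chosen with earlier results of these data known, and 4 lists (cholesterol, tuft cells, immunoglobulin segments, ribosomal proteins) and some genes were added after values were seen. Named genes were the study's senescence panel and D+Q genes, the 10 per direction without overlap and with the smallest p at a mean of at least 1 CPM, the 2 members per list with the smallest p, and the 5 age-raised and 5 age-lowered genes with the smallest p, some of which are not reported here. The study's qPCR, staining and functional assays were not analysed here.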

Additional observations from a re-analysis of the deposited data

Results flagged for a closer look

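Among 230 groups of values examined, 15 (6.52%) held a bladder far from the rest of its group by Dixon's criterion, for 11 genes and 4 lists. Chance gives about 1 in 20 only for independent, normally distributed values. CPM were used without a log and some of the genes belong to the lists, so that rate need not apply here. Vehicle replicate 3 was lowest in Cdkn1a at 63.1 CPM and highest in Cxcr5 at 28.3 CPM and Syk at 180 CPM. Vehicle replicate 1 was highest in summed mast cell genes at 65.67 CPM, and vehicle replicate 4 was highest in summed umbrella cell genes at 8256 CPM. D+Q replicate 6 was highest in Hbb-bs at 2052 CPM, Hba-a1 at 530 CPM, summed red cell genes at 3488 CPM and Cdkn2a at 2.14 CPM. D+Q replicate 5 was highest in Cxcl13 at 17.9 CPM, Col5a1 at 370 CPM and summed basal urothelial genes at 2913 CPM, and lowest in Bcl2a1a at 0.299 CPM. D+Q replicate 4 was highest in Igkv9-124 at 94.9 CPM and D+Q replicate 1 in Cyp11a1 at 1.71 CPM.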

How the results depend on the processing

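With vehicle alone as the control, the quasi-likelihood test called 0 genes at adjusted p under 0.05. This held under every scaling, filter, sample set and left-out bladder tried. The same test called 5 genes with vehicle and water bladders pooled as the control. With vehicle alone, DESeq2 called 10, edgeR's exactTest 3 and its likelihood ratio test 3. DESeq2 gave no adjusted p for 46 genes. The count at an unadjusted p under 0.05 was 722, against 448 with exactTest, 455 with the likelihood ratio test, 1122 with the 4 old groups in a single fit and 531 to 1553 with 1 bladder left out, highest without vehicle replicate 1. Genes changed with age numbered 1290 at a change of at least 1.5-fold.

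Of 1665 values of 67 named genes under the alternatives, 1635 kept their direction and 30, in 13 genes, did not. Leaving out 1 bladder gave -0.33 to 0.04 for Cdkn2a, -0.12 to 0.26 for Ccl2, -0.29 to 0.06 for Ccl3, -0.11 to 0.51 for Il1b, -0.06 to 0.07 for Tgfb1, -0.95 to 0.06 for Syk, -1.59 to -0.18 for Cxcr5, -0.53 to -0.05 for Pik3cd and -1.13 to 0.23 for H2-DMb2. With the pooled controls Cdkn1a was -0.02, Ccl2 -0.06, Mmp3 0.07, Tgfb1 -0.06 and Nr4a2 -0.04, and with voom sample weights Ccl3 was 0.4 and Cxcl13 0.2. Without vehicle replicate 3 and D+Q replicate 6 together, a setting chosen after seeing the data, Ccl2 was 0.29, Il1b 0.55, Ccl3 0.08, Cxcr5 0.03, Syk 0.15, Pik3cd 0.01 and H2-DMb2 0.34. The causes were not tested.

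Deviations of same-numbered bladders correlated at 0.079, 0.185, -0.033 and 0.068 for the title numbers. For the description numbers they correlated at 0.079, 0.185, 0.132 and -0.029. Differently numbered bladders ranged from -0.268 to 0.316. So few values cannot decide whether the numbers pair the bladders, and the labels do not say. With the replicate block 0 genes were called, with 643 (title) and 740 (description) at an unadjusted p under 0.05. Under the block Ccl3 was 0.19 (title), and Tgfb1 -0.02 (title) and -0.03 (description).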

Other observations

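Other gene lists had small median log2 fold changes after D+Q. The 19 PI3K-AKT genes had a median of -0.08 with 13 below 0, and the 7 tested ephrins a median of 0.00. Among immune lists, plasma cell genes had a median of -0.12 and T cell checkpoint genes of -0.07, while dendritic cell genes were at -0.08, cytotoxic and NK cell genes at 0.03, MHC class I genes at -0.05 and lymphoid tissue chemokines at -0.19. Without vehicle replicate 3 these medians were 0.14 for plasma cells, 0.31 for checkpoint genes, 0.16 for dendritic cells, 0.38 for cytotoxic and NK cells, 0.18 for MHC class I and 0.14 for lymphoid chemokines, so all but the cytotoxic and NK list changed sign, and that list was at -0.20 without vehicle replicate 1. Glucocorticoid response genes had a median of -0.04 (0.09 without vehicle replicate 3) and the 19 circadian clock genes of -0.01, with 8 above 0 and 11 below. The 81 tested cytoplasmic ribosomal protein genes had a median of -0.01, with 35 above 0 and 46 below. The 8 tested genes of the female reproductive tract had a median of -0.03. No gene of these lists passed the adjusted threshold.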
